A study of Mus musculus with 8 samples.

Results

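The 36 genes described here encode the enzymes that make cholesterol and fatty acids, the proteins that regulate them, and 3 genes of sterol sensing and efflux. These 3, called the efflux genes below, are the transporters *Abca1* and *Abcg1* and *Nr1h3*, which encodes an oxysterol receptor. The 36 genes were taken by gene symbol from the table of all 24346 genes, in which all 36 were found. They were measured in 8 RNA libraries of mouse bone marrow MSCs (multipotent mesenchymal stem/stromal cells, adherent marrow cells able to turn into bone-, fat- or cartilage-forming cells), all of C57BL/6 background and at passage 4. The undifferentiated WT and undifferentiated *Dnmt3l* KO groups were in growth medium with 20% fetal bovine serum, and the differentiating WT and differentiating *Dnmt3l* KO groups were at day 3 of osteogenic induction in medium with 10% serum, 0.1 µM dexamethasone, 10 mM β-glycerophosphate and 50 µM ascorbic acid 2-phosphate. Each group had 2 libraries. The KO mice carried a constitutive null allele of *Dnmt3l*, a cofactor of de novo DNA methylation, and the WT mice were their littermates. The animals were adult females, cells of several mice were mixed by genotype, and cells bearing CD11b or CD45 were taken out of the adherent cultures by magnetic selection. Serum level and the induction agents changed together, so their effects cannot be told apart. Per the paper, induction began at confluence, and no uninduced cells kept to the same day are described. Cell density and days in culture thus cannot be told apart from induction either.

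Cholesterol and fatty acid synthesis share a regulator family, the SREBP factors. SREBPs are made as membrane precursors in the endoplasmic reticulum, where SCAP escorts them and the INSIG proteins hold them back when sterols are plentiful. When sterols fall, the factors are released by cleavage and raise the genes of the mevalonate pathway, of the steps from squalene to cholesterol and of fatty acid synthesis. When sterols accumulate, oxysterols activate the LXR receptors, which raise the efflux transporters. Marrow stromal cells need new membrane lipid when they divide and store lipid when they turn into fat cells.

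*Dnmt3l* itself was at 1.56 and 1.09 RPKM (reads per kilobase of transcript, scaled to library depth) in undifferentiated WT MSCs and at 0.845 and 0.830 RPKM in differentiating WT MSCs, and was listed at 0 in all 4 KO libraries. The table gives no depth. The smallest steps between low values, with 200 bases taken off each transcript length, gave about 47.8 to 66.2 M reads per library. This is the depth implied by the values and not a count of raw reads, of which the paper gives more per sample. All 36 genes were above 0 in every library, and the lowest estimate, for *Abcg1*, was 33.7 reads. All passed the minimum of a mean of 0.1 RPKM that left 15342 genes to test. Differences are given as log2 fold changes on the scale of log2(RPKM + 0.1), which understates the change of genes with low values, and come from a linear model fitted to all 8 libraries in limma with the Benjamini-Hochberg adjustment over all tested genes. A gene passed the test at an adjusted p under 0.05. Whether the 2 libraries of each group are of separate cultures is not in the labels, so the p-values measure only the spread between libraries. With 50-base reads some genes share sequence with other annotated genes. The share of 50-base windows of the transcript found elsewhere was 86.4% for *Fdps* (mostly *Gm43738*), 52.6% for *Acaca*, 45.9% for *Acat2* (mostly *Acat3*), 21.3% for *Idi1* and 10.9% for *Fdft1*, and at most 4.66% for the other genes, so the values of these 5 are less certain.

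Promoter sequences in the RefSeq table (GRCm38.p6) were available for 28 of the 36 genes, as 37 windows from 250 bases before to 50 bases after a transcription start. These windows were searched on both strands for TCACNCCAC, a form of the sterol regulatory element that SREBPs bind, and for CCAAT, the element bound by NF-Y, a factor that works beside SREBPs at many sterol genes. The first was found in 1 of the 28 genes (3.57%), *Hmgcs1*, against 1.44% of the 27025 genes in the table. CCAAT was found in 21 of the 28 genes (75%) against 41.1% of all genes, and in 59.5% of the 37 windows against 37.4% of all windows. It was present in all 9 genes of the steps from squalene to cholesterol that had a window, and in 5 of 6 of the mevalonate pathway. Of the genes of sterol sensing and efflux, *Abca1* and *Nr1h3* had windows, and neither held CCAAT. The stretches below lie before the start and outside annotated exons, and are shown for a mevalonate pathway enzyme with both elements, for 3 genes with CCAAT elements on the strand of the gene or the opposite strand, for the fatty acid synthase gene, in which a pair of CCAAT elements on opposite strands overlap, and for an efflux gene with neither. Capitals mark the elements, which read ATTGG where CCAAT lies on the opposite strand. All are written 5′ to 3′ on the strand of the gene.
Hmgcs1: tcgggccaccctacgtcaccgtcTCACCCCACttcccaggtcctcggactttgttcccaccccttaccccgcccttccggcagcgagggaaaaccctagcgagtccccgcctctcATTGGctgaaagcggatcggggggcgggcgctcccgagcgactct
Mvd: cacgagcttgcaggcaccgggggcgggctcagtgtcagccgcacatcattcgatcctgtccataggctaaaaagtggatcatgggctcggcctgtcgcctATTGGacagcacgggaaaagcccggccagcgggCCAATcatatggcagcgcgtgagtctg
Lss: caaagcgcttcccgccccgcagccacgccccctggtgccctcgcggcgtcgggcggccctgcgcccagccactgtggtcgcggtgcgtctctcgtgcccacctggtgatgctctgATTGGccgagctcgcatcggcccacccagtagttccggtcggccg
Hsd17b7: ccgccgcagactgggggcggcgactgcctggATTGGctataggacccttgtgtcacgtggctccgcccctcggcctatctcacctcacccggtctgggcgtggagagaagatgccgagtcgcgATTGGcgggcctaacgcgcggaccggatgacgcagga
Fasn: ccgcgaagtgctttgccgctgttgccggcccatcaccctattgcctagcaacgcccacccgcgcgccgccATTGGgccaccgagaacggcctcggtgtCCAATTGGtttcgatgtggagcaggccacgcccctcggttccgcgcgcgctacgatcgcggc
Abca1: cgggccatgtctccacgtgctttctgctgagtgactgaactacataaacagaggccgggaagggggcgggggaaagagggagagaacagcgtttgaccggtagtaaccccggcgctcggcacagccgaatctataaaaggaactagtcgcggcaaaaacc
The positions were chr13:119690191-119690350 (plus strand), chr8:122443423-122443582 (minus strand), chr10:76531428-76531587 (plus strand), chr1:169969242-169969401 (minus strand), chr11:120824548-120824707 (minus strand) and chr4:53159896-53160055 (minus strand). A match of letters describes the sequence only, and binding was not measured.

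Across the 4 groups the genes did not all move together. The summed level of the 18 enzymes from acetoacetyl-CoA to cholesterol was 266 and 275 RPKM in the undifferentiated WT libraries, 232 and 251 in differentiating WT, 273 and 273 in undifferentiated KO and 188 and 159 in differentiating KO. Both differentiating KO libraries lay below the other 6. The 6 desaturases and elongases showed the same low group, with 125 and 118 RPKM in differentiating KO MSCs against 165 to 169 RPKM in the other libraries. The 3 efflux genes together rose from 10.2 and 10.3 to 62.0 and 56.8 RPKM on induction in WT, and from 9.69 and 9.54 to 84.3 and 96.2 RPKM in KO. In this rRNA-depleted bulk RNA, fewer cells of a type and less RNA per cell cannot be told apart.

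**Figure D1:**
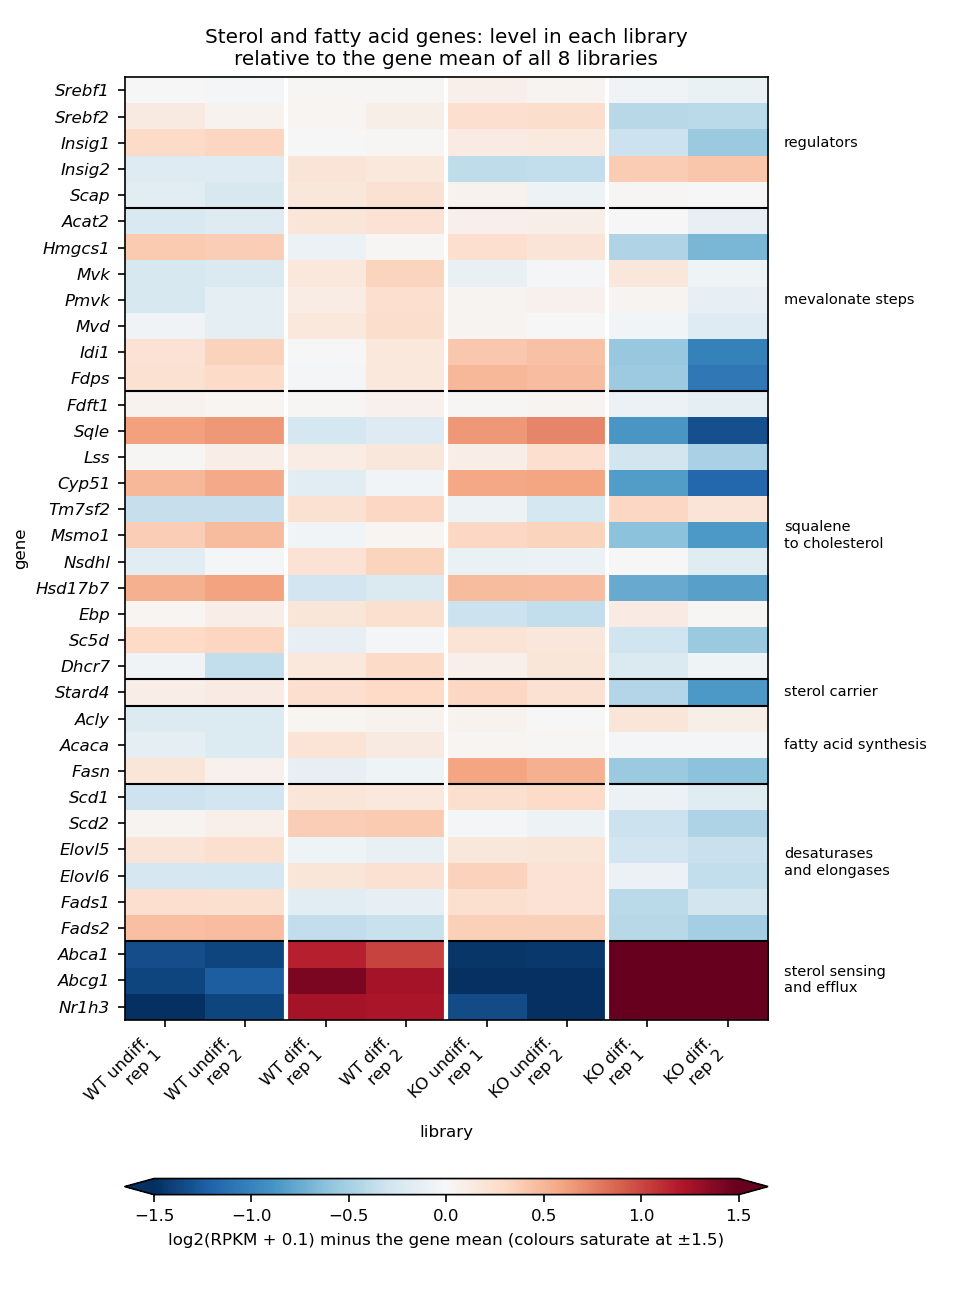
Level of each of the 36 genes (rows, by role) in each of the 8 libraries (columns), as log2(RPKM + 0.1) minus the mean of the gene over all libraries. Blue is below and red above the mean, and colours saturate at a difference of 1.5. Most enzyme rows are bluest in the 2 differentiating KO libraries, while *Abca1*, *Abcg1* and *Nr1h3* are red in all 4 differentiating libraries.

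The comparison of KO with WT after 3 days of induction sets differentiating cells of *Dnmt3l* null mice against those of WT littermates. The paper did not detect full-length DNMT3L protein in cultured MSCs, and the WT reads of *Dnmt3l* covered only the later exons. Of the 36 genes 24 were lower in KO (22.9% of all tested genes were), 4 were higher (17.8% of all) and 8 did not pass. None of the 36 was beyond 2-fold, the limit of the study for a differentially expressed gene, a limit that 1.95% of all genes passed as lower and 1.36% as higher. The median log2 fold change of the 36 was -0.31, against -0.0067 over all genes. By role, 8 of 11 enzymes from squalene to cholesterol, 5 of 7 of the mevalonate pathway, 2 of 3 of fatty acid synthesis and 5 of 6 desaturases and elongases were lower, and the 3 efflux genes were higher. The count depended on the fit. With only the 4 libraries compared, 11 were lower and 3 higher (3037 genes called in all, against 6251), and *Sqle*, *Idi1*, *Fdps* and *Insig1* were among the 14 that no longer passed. Without differentiating WT replicate 2, 14 were lower and 2 higher (3096 genes called in all). Without differentiating KO replicate 1, 28 were lower, of which 5 were beyond 2-fold (6318 called in all), and without differentiating KO replicate 2, 20 were lower (4498 called in all). Both KO libraries lay below both WT libraries for 29 of the 36 genes (37.1% of all tested genes) and above them for 5 (33.8% of all), so that for a single gene the absence of overlap is a description.

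Among the regulators, *Srebf2*, which encodes the SREBP that acts mainly on cholesterol genes, was at 7.94 and 8.21 RPKM in differentiating WT and 5.80 and 5.81 RPKM in differentiating KO MSCs. The groups did not overlap, and the log2 fold change was -0.47 ± 0.041 (SE, adjusted p = 0.00114). *Srebf1*, which encodes the factors that act mainly on fatty acid genes, was at 14.0 and 14.0 RPKM in WT and 13.4 and 13.0 RPKM in KO, a difference that did not pass (-0.088 ± 0.032 SE, adjusted p = 0.0722). The INSIG genes went opposite ways. *Insig1*, itself an SREBP target, was lower, with 20.3 and 20.6 RPKM in WT and 16.3 and 13.8 RPKM in KO (-0.44 ± 0.075 SE, adjusted p = 0.00671). *Insig2*, which is less dependent on SREBPs, was higher, with 21.8 and 21.3 RPKM in WT and 24.8 and 25.4 RPKM in KO (0.22 ± 0.030 SE, adjusted p = 0.00318). *Scap*, which encodes the escort of SREBPs, was at 19.1 and 20.1 RPKM in WT and 17.3 and 17.2 RPKM in KO (-0.18 ± 0.056 SE, adjusted p = 0.0417), and it no longer passed without any 1 of 6 of the 8 libraries, the undifferentiated KO pair being the exception.

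In the mevalonate pathway, the largest differences were at the 2 enzymes that isomerize and join the isoprene units. The values of both genes are less certain because of the sequence they share with other genes. *Idi1*, the isopentenyl diphosphate isomerase, was at 9.33 and 10.4 RPKM in differentiating WT and 6.20 and 4.54 RPKM in differentiating KO MSCs. *Fdps*, the farnesyl diphosphate synthase, was at 37.2 and 42.0 RPKM in WT and 25.9 and 17.9 RPKM in KO. Both KO libraries lay below both WT libraries for each gene, as for 37.1% of all tested genes, and replicate 2 was the lower KO library. The log2 fold change was -0.88 ± 0.14 (SE, adjusted p = 0.00582) for *Idi1* and -0.87 ± 0.16 (SE, adjusted p = 0.00910) for *Fdps*, and *Fdps* no longer passed without differentiating WT replicate 2. *Hmgcs1*, which makes HMG-CoA, the substrate of the rate-limiting step, was at 21.7 and 23.4 RPKM in WT and 16.9 and 14.3 RPKM in KO (-0.54 ± 0.081 SE, adjusted p = 0.00459). Smaller differences passed for *Mvd*, the diphosphomevalonate decarboxylase (-0.33 ± 0.067 SE, adjusted p = 0.0122), and *Acat2*, a cytosolic thiolase that makes acetoacetyl-CoA (-0.26 ± 0.048 SE, adjusted p = 0.00876). The kinases that phosphorylate mevalonate, *Mvk* (-0.19 ± 0.092 SE, adjusted p = 0.145) and *Pmvk* (-0.22 ± 0.076 SE, adjusted p = 0.0617), did not pass.

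From squalene onward, *Sqle*, the squalene epoxidase and a control point of the pathway, was at 8.45 and 8.90 RPKM in differentiating WT and 5.50 and 4.01 RPKM in differentiating KO MSCs. *Cyp51*, the lanosterol demethylase, was at 12.2 and 13.4 RPKM in WT and 7.64 and 6.02 RPKM in KO. The KO level was 0.547 times the WT level for *Sqle* (-0.87 ± 0.14 SE, adjusted p = 0.00501) and 0.535 times for *Cyp51* (-0.90 ± 0.11 SE, adjusted p = 0.00246). *Msmo1*, the C4-methyl sterol oxidase, was at 20.6 and 21.6 RPKM in WT and 13.8 and 11.6 RPKM in KO (-0.73 ± 0.083 SE, adjusted p = 0.00201). *Hsd17b7*, a sterol ketoreductase at the same C4 demethylation step, was at 7.88 and 8.25 RPKM in WT and 5.63 and 5.42 RPKM in KO and had the smallest adjusted p of the 11 (-0.54 ± 0.044 SE, adjusted p = 9.33e-04). For these 4 genes both KO libraries lay below both WT libraries, as they did for 37.1% of all tested genes. *Lss*, the lanosterol synthase, was lower at -0.52 ± 0.092 (SE, adjusted p = 0.00747), from 3.17 and 3.30 RPKM in WT to 2.40 and 2.06 RPKM in KO.

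Another 3 genes of these steps were lower by less. They were *Nsdhl*, the C4 decarboxylase (-0.37 ± 0.081 SE, adjusted p = 0.0156), *Sc5d*, the lathosterol desaturase (-0.36 ± 0.084 SE, adjusted p = 0.0195), and *Fdft1*, the squalene synthase, which had the smallest called difference (-0.15 ± 0.036 SE, adjusted p = 0.0213). *Lss*, *Nsdhl*, *Sc5d* and *Fdft1* did not pass without differentiating WT replicate 2, and neither did *Mvd* and *Acat2* of the mevalonate pathway. *Mvd*, *Fdft1* and *Nsdhl* also did not pass without differentiating KO replicate 2, and *Sc5d* was then at -0.23. Not all late enzymes passed as lower, though all 11 genes of these steps had a negative log2 fold change. *Tm7sf2*, the sterol C14 reductase, was at 2.54 and 2.68 RPKM in WT and 2.69 and 2.47 RPKM in KO (-0.019 ± 0.084 SE, adjusted p = 0.885, 95% interval -0.22 to 0.19). *Ebp*, the sterol isomerase (-0.14 ± 0.050 SE, adjusted p = 0.0637), and *Dhcr7*, the last enzyme of the pathway (-0.36 ± 0.13 SE, adjusted p = 0.0630), did not pass either. *Stard4*, which encodes a carrier that moves sterol between membranes and is a known SREBP2 target, had the lowest log2 fold change of the 36 at a pseudocount of 0.1. With a pseudocount of 1 it was at -0.64, and other genes were lower, among them *Fdps*, *Cyp51*, *Idi1*, *Scd2* and *Sqle*. It was at 2.70 and 2.79 RPKM in WT and 1.63 and 1.20 RPKM in KO, 0.526 times the WT level (-0.93 ± 0.13 SE, adjusted p = 0.00387).

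**Figure D2:**
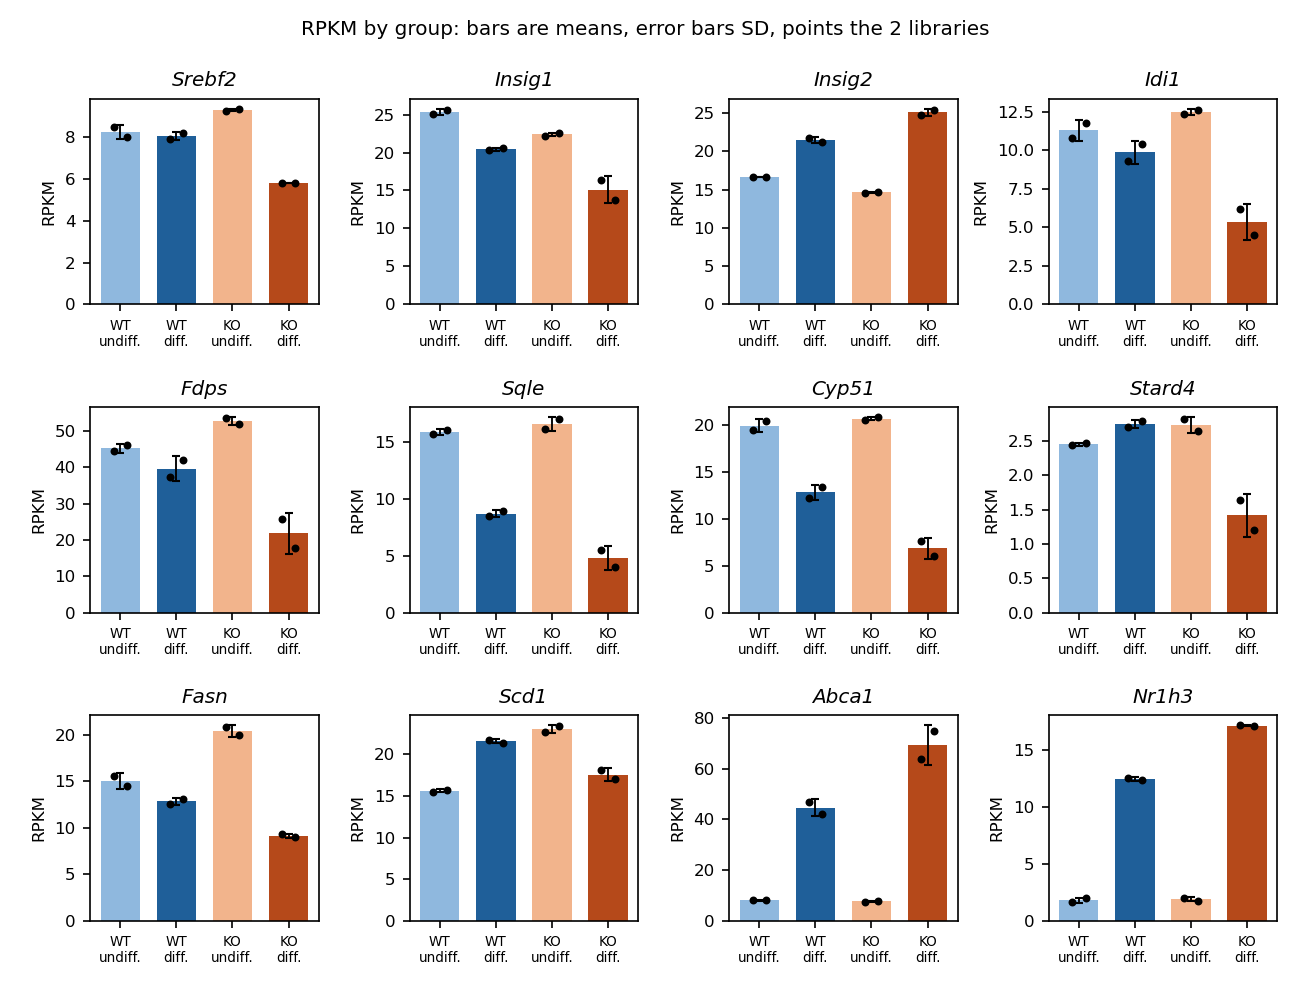
RPKM of 12 of the 36 genes in the 4 groups. Bars are means, error bars are SD and points are the 2 libraries of each group, and each vertical axis starts at 0. *Idi1*, *Fdps*, *Sqle*, *Cyp51* and *Stard4* are lowest in differentiating KO MSCs, and *Abca1* and *Nr1h3* are highest there.

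Most of the fatty acid genes were lower, and none passed as higher. *Fasn*, the fatty acid synthase, was at 12.6 and 13.2 RPKM in differentiating WT and 9.31 and 8.98 RPKM in differentiating KO MSCs (-0.49 ± 0.051 SE, adjusted p = 0.00157). *Acaca*, the acetyl-CoA carboxylase that supplies it with malonyl-CoA, was lower by less (-0.19 ± 0.037 SE, adjusted p = 0.0108). *Acly*, which makes cytosolic acetyl-CoA for both pathways, was at 57.7 and 58.6 RPKM in WT and 63.8 and 59.9 RPKM in KO and did not pass (0.088 ± 0.038 SE, adjusted p = 0.115). Among the desaturases, *Scd2*, the stearoyl-CoA desaturase with the highest RPKM of the 36 genes in WT, fell most. It was at 81.6 and 82.9 RPKM in WT and 50.4 and 45.6 RPKM in KO, and neither KO library reached the WT range (-0.78 ± 0.052 SE, adjusted p = 6.69e-04). Its neighbour *Scd1* was at 21.8 and 21.4 RPKM in WT and 18.2 and 17.0 RPKM in KO (-0.30 ± 0.040 SE, adjusted p = 0.00330), and the 2 genes shared 4.66% and 4.01% of their 50-base windows. *Elovl6*, which lengthens palmitate (-0.43 ± 0.10 SE, adjusted p = 0.0159), *Elovl5*, which lengthens polyunsaturated fatty acids (-0.22 ± 0.035 SE, adjusted p = 0.00494), and *Fads1*, the delta-5 desaturase (-0.20 ± 0.045 SE, adjusted p = 0.0167), were lower as well. *Fads2*, the delta-6 desaturase, was at 13.4 and 13.8 RPKM in WT and 13.0 and 12.1 RPKM in KO and did not pass (-0.12 ± 0.040 SE, adjusted p = 0.0607). *Elovl6* and *Fads1* no longer passed without differentiating WT replicate 1 or replicate 2, and *Acaca* without replicate 1.

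The genes of sterol sensing and efflux went the other way. *Abca1*, the transporter that passes cholesterol to apolipoproteins, was at 47.0 and 42.3 RPKM in differentiating WT and 63.9 and 75.0 RPKM in differentiating KO MSCs, 1.55 times the WT level (0.63 ± 0.085 SE, adjusted p = 0.00311). *Abcg1*, its partner transporter toward high-density lipoprotein, was at 2.44 and 2.18 RPKM in WT and 3.19 and 4.04 RPKM in KO (0.62 ± 0.15 SE, adjusted p = 0.0225). *Nr1h3*, which encodes the oxysterol receptor LXRα that raises both transporters, was at 12.5 and 12.3 RPKM in WT and 17.2 and 17.1 RPKM in KO (0.46 ± 0.090 SE, adjusted p = 0.0105). For all 3 genes both KO libraries were above both WT libraries, as they were for 33.8% of all tested genes. *Abcg1* did not pass without differentiating WT replicate 1 or 2 or differentiating KO replicate 2, and *Nr1h3* did not pass without differentiating WT replicate 2 or differentiating KO replicate 2.

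**Figure D3:**
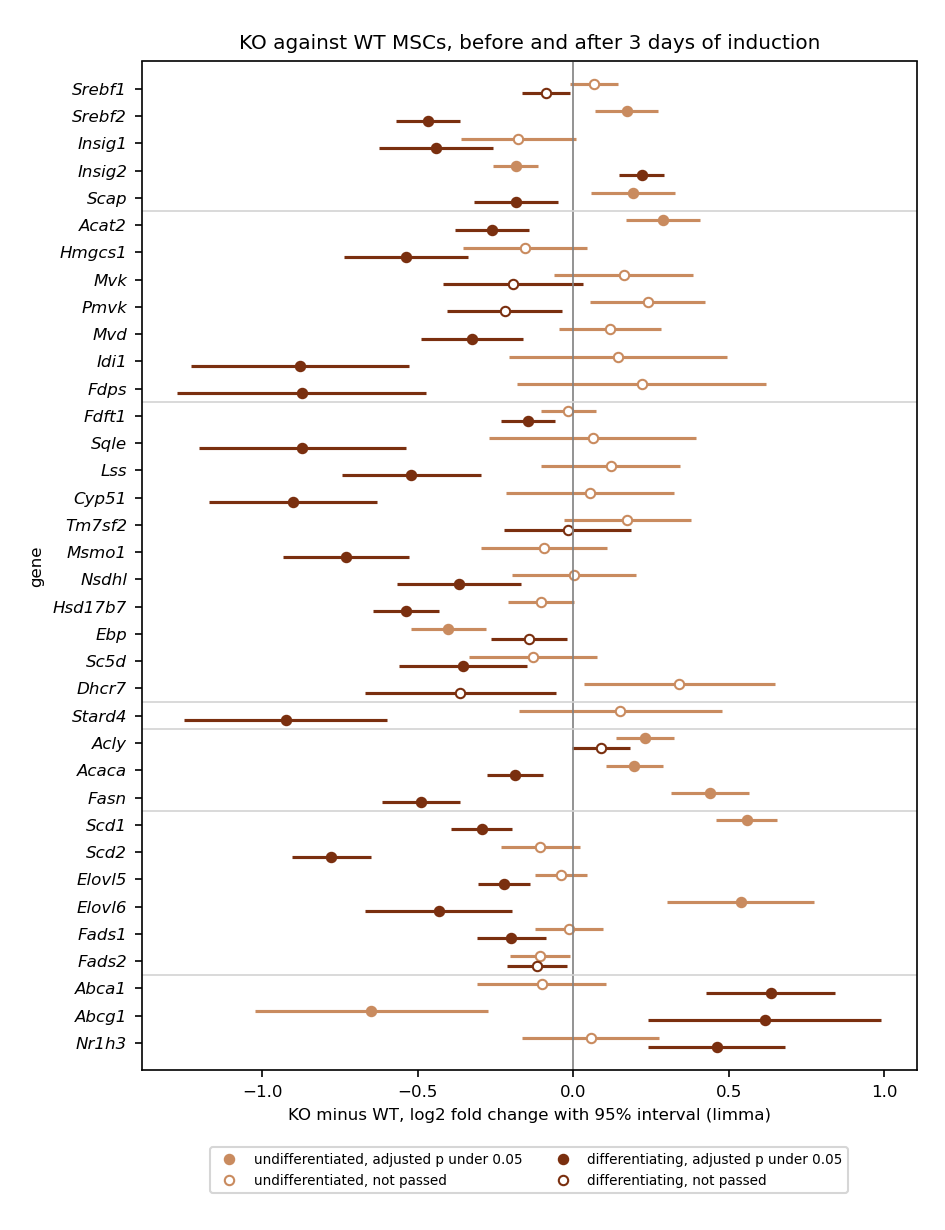
KO minus WT log2 fold change of the 36 genes with the 95% interval from limma, in undifferentiated (light) and differentiating (dark) MSCs. Filled points have an adjusted p under 0.05 over all tested genes and open points do not. In differentiating MSCs 24 points lie to the left and 4 to the right of 0 with a filled mark, against 3 and 8 in undifferentiated MSCs.

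Before induction fewer of the genes passed, and most that did were higher. Of the 36 genes 8 were higher in undifferentiated KO than in undifferentiated WT MSCs (14.7% of all tested genes were), 3 were lower (17.5% of all) and 25 did not pass. None was beyond 2-fold (0.613% of all genes as higher and 1.09% as lower), and the median was 0.064 against -0.0027 over all genes. Of the 8, 5 belonged to fatty acid synthesis, desaturation and elongation. *Scd1* was at 15.5 and 15.8 RPKM in WT and 22.7 and 23.4 RPKM in KO (0.56 ± 0.040 SE, adjusted p = 6.19e-04), *Elovl6* at 3.95 and 3.91 RPKM in WT and 6.03 and 5.49 RPKM in KO (0.54 ± 0.10 SE, adjusted p = 0.010), and *Fasn* at 15.6 and 14.5 RPKM in WT and 20.9 and 20.0 RPKM in KO (0.44 ± 0.051 SE, adjusted p = 0.00264). In each case both KO libraries lay above both WT libraries, as they did for 20 of the 36 genes and 34.8% of all tested genes. *Acat2* (0.29 ± 0.048 SE, adjusted p = 0.00810), *Acly* (0.23 ± 0.038 SE, adjusted p = 0.00781) and *Acaca* (0.20 ± 0.037 SE, adjusted p = 0.0118) were higher by less, as were the regulators *Srebf2* (0.17 ± 0.041 SE, adjusted p = 0.0255) and *Scap* (0.19 ± 0.056 SE, adjusted p = 0.0442). The call of *Scap* was lost in 12 of 17 alternatives (0.13 without undifferentiated KO replicate 1) and that of *Srebf2* in 5 of 17.

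Among the 18 enzymes of the sterol branch, *Acat2* was higher, *Ebp* was lower and the other 16 did not pass before induction. *Ebp* was at 23.4 and 24.6 RPKM in WT and 18.4 and 17.8 RPKM in KO (-0.40 ± 0.050 SE, adjusted p = 0.00309). *Insig2* was lower too (-0.19 ± 0.030 SE, adjusted p = 0.00695), the opposite of its direction after induction. *Abcg1* was lower at a very low level, 0.268 and 0.305 RPKM in WT and 0.125 and 0.169 RPKM in KO (-0.65 ± 0.15 SE, adjusted p = 0.0237), where a pseudocount of 1 took the difference to -0.17 and ended the call. *Sqle* was at 15.6 and 16.0 RPKM in WT and 16.1 and 17.0 RPKM in KO (0.062 ± 0.14 SE, adjusted p = 0.765), and *Cyp51* at 19.4 and 20.4 RPKM in WT and 20.5 and 20.8 RPKM in KO (0.053 ± 0.11 SE, adjusted p = 0.751). For these 2 enzymes the 95% intervals ran from -0.27 to 0.39 and from -0.22 to 0.32, so that a difference of the size seen after induction lay outside them. The count of higher genes fell to 3 without undifferentiated KO replicate 1, 4 without undifferentiated WT replicate 2 and 5 without undifferentiated KO replicate 2, where 2289, 2320 and 2293 genes were called in all, against 4943. The count of lower genes was 7 with only the 4 libraries compared and 6 without differentiating KO replicate 1 or replicate 2.

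Between undifferentiated cells and day 3 of induction, most of the 36 genes differed in each genotype. So did most of all tested genes, 9882 of 15342 in WT and 11186 in KO. In WT MSCs 18 of the 36 rose (31.6% of all tested genes did), 11 fell (32.8% of all) and 7 did not pass. Beyond 2-fold were *Abca1*, *Abcg1* and *Nr1h3*, all higher (9.69% of all genes were higher by that much and 4.63% lower). In KO MSCs 7 rose (36.4% of all), 22 fell (36.6% of all) and 7 did not pass. There 3 were beyond 2-fold as higher (13.0% of all genes) and 7 as lower (9.87% of all), the 7 being *Sqle*, *Cyp51*, *Fdps*, *Hsd17b7*, *Idi1*, *Fasn* and *Msmo1*. The median change was 0.16 in WT and -0.37 in KO. Under median centring the median of all genes shifted by -0.10 for WT, and the median of the 36 became 0.056. Of the 36 genes, 7 rose in both genotypes, 11 fell in both, 4 rose in WT and fell in KO, 7 rose in WT and did not pass in KO, and 7 fell in KO and did not pass in WT. Of all tested genes 26.2% rose in both, 27.4% fell in both, 1.21% rose in WT and fell in KO, 4.20% rose in WT and did not pass in KO, and 7.93% fell in KO and did not pass in WT.

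Of the 11 genes that fell in both genotypes, *Sqle*, *Hsd17b7*, *Fads2* and *Cyp51* fell most in WT. *Sqle* went from 15.6 and 16.0 to 8.45 and 8.90 RPKM in WT (-0.86 ± 0.14 SE, adjusted p = 0.00201) and from 16.1 and 17.0 to 5.50 and 4.01 RPKM in KO (-1.79 ± 0.14 SE, adjusted p = 4.98e-05). The log2 fold changes in WT and KO were -0.64 and -1.59 for *Cyp51*, -0.82 and -1.26 for *Hsd17b7*, -0.43 and -1.07 for *Msmo1*, and -0.41 and -0.79 for *Hmgcs1*. Each of these enzymes was lower after induction in both genotypes and lowest in the differentiating KO libraries. *Fads2* went from 23.9 and 24.0 to 13.4 and 13.8 RPKM in WT (-0.81 ± 0.040 SE, adjusted p = 1.51e-05) and from 22.2 and 22.2 to 13.0 and 12.1 RPKM in KO (-0.82 ± 0.040 SE, adjusted p = 7.96e-06), and the difference between the falls was -0.0085 with a 95% interval of -0.15 to 0.13. *Insig1*, *Sc5d*, *Elovl5*, *Fads1* and *Fasn* made up the 11, with log2 fold changes in WT of -0.31, -0.39, -0.31, -0.39 and -0.22. In WT the fall of *Insig1* did not pass without undifferentiated WT replicate 2 or without either replicate of differentiating WT left out in turn, that of *Fasn* without replicate 1 of either WT group, and that of *Sc5d* without differentiating WT replicate 1.

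Genes that rose in WT included much of the rest of the pathway. *Mvk* (0.47 ± 0.092 SE, adjusted p = 0.00471), *Pmvk* (0.37 ± 0.076 SE, adjusted p = 0.00621), *Mvd* (0.31 ± 0.067 SE, adjusted p = 0.00749), *Nsdhl* (0.37 ± 0.081 SE, adjusted p = 0.00781), *Dhcr7* (0.43 ± 0.13 SE, adjusted p = 0.0241), *Scap* (0.40 ± 0.056 SE, adjusted p = 0.00116) and *Acaca* (0.35 ± 0.037 SE, adjusted p = 3.67e-04) rose in WT and did not pass in KO. The interaction did not pass for *Mvk* (-0.35 ± 0.13 SE, adjusted p = 0.0758), and under median centring *Mvd*, *Dhcr7* and *Acaca* passed as falls in KO, as did *Mvd* and *Dhcr7* under quantile normalization and *Mvd* without differentiating KO replicate 1. The steps of sterol synthesis did not share 1 direction in WT, where *Hmgcs1*, *Sqle* and *Cyp51* fell while the mevalonate kinases rose. *Dhcr7*, with a level of 1.39 and 1.10 RPKM in undifferentiated WT, did not pass under quantile normalization, under median centring, with only the 4 libraries compared, or without undifferentiated WT replicate 2, differentiating WT replicate 1 or differentiating WT replicate 2. *Nsdhl* did not pass without differentiating WT replicate 2. *Acat2*, *Scd1*, *Scd2* and *Elovl6* rose in WT and fell in KO. *Scd1*, for example, went from 15.5 and 15.8 to 21.8 and 21.4 RPKM in WT (0.46 ± 0.040 SE, adjusted p = 1.56e-04) and from 22.7 and 23.4 to 18.2 and 17.0 RPKM in KO (-0.39 ± 0.040 SE, adjusted p = 1.95e-04). *Scd2* went from 64.9 and 66.2 to 81.6 and 82.9 RPKM in WT and from 62.2 and 59.6 to 50.4 and 45.6 RPKM in KO. The call of the fall of *Acat2* in KO (-0.15 ± 0.048 SE, adjusted p = 0.0333) was lost in 9 of 17 alternatives.

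The 7 genes that rose in both genotypes were *Insig2*, *Tm7sf2*, *Ebp*, *Acly* and the 3 efflux genes. The rise of *Ebp* in WT (0.15 ± 0.050 SE, adjusted p = 0.0347) was lost in 9 of 17 alternatives. *Nr1h3* went from 1.65 and 1.95 to 12.5 and 12.3 RPKM in WT and from 2.00 and 1.75 to 17.2 and 17.1 RPKM in KO. *Abca1* went from 8.29 and 8.03 to 47.0 and 42.3 RPKM in WT, a 5.41-fold rise (2.44 ± 0.085 SE, adjusted p = 4.47e-06), and from 7.57 and 7.62 to 63.9 and 75.0 RPKM in KO, a 9.02-fold rise (3.17 ± 0.085 SE, adjusted p = 1.04e-06). *Abcg1* rose by 2.64 in WT and 3.91 in KO on the log2 scale (1.36 and 2.00 with a pseudocount of 1). These were the largest changes of the 36. *Insig2* rose from 16.7 and 16.7 to 21.8 and 21.3 RPKM in WT (0.37 ± 0.030 SE, adjusted p = 1.14e-04) and from 14.6 and 14.7 to 24.8 and 25.4 RPKM in KO (0.77 ± 0.030 SE, adjusted p = 3.37e-06), while *Insig1* fell in both. *Acly* rose in KO by 0.11, a call that was lost in 11 of 17 alternatives. The 7 genes that fell in KO and did not pass in WT were *Srebf1*, *Srebf2*, *Idi1*, *Fdps*, *Fdft1*, *Lss* and *Stard4*. *Srebf2* and *Fdft1* passed in WT under median centring and *Fdps* without either differentiating KO library, and the interaction did not pass for *Fdft1* (-0.13 ± 0.051 SE, adjusted p = 0.0892), whose fall in KO was lost in 3 of 17 alternatives. *Srebf2* was at 9.27 and 9.35 RPKM before and 5.80 and 5.81 RPKM after induction in KO (-0.67 ± 0.041 SE, adjusted p = 2.12e-05), against 8.50 and 8.02 RPKM before and 7.94 and 8.21 RPKM after in WT (-0.032 ± 0.041 SE, adjusted p = 0.529).

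**Figure D4:**
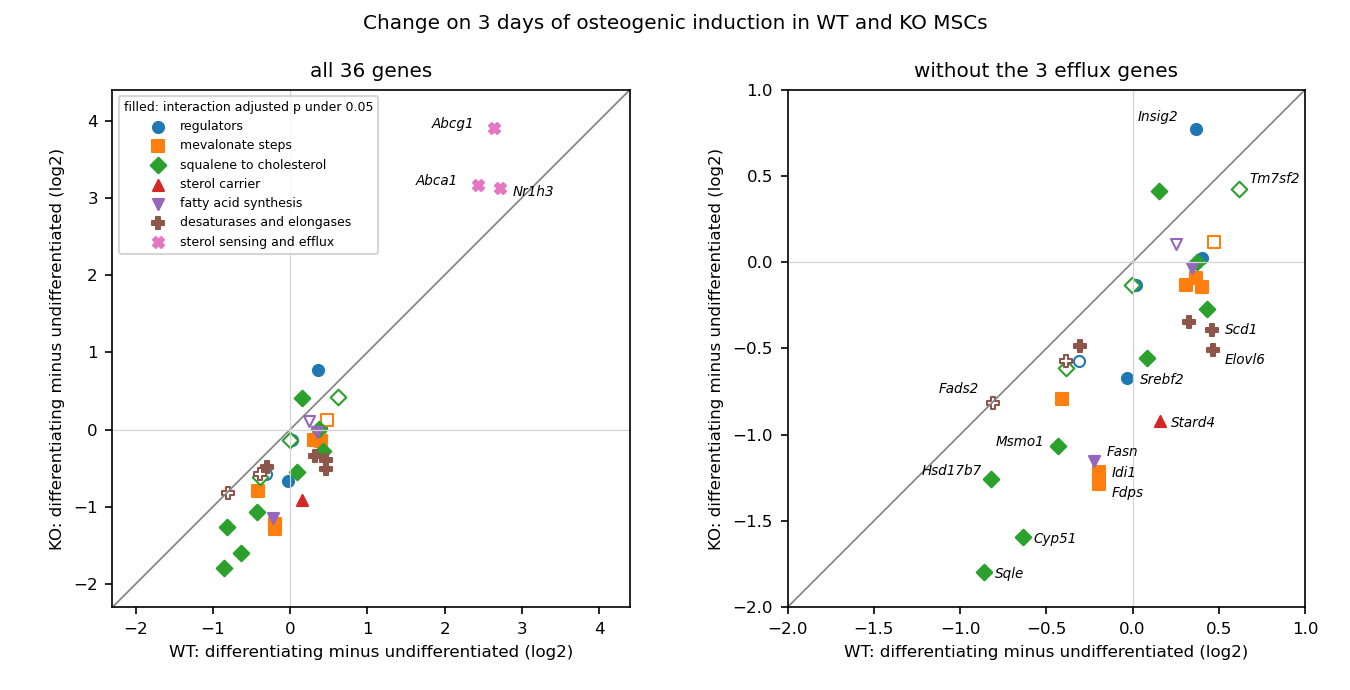
Log2 fold change on 3 days of induction in WT (horizontal) and KO (vertical) MSCs, for all 36 genes (left) and without the 3 efflux genes (right). The grey diagonal marks equal change, marker shape and colour give the role, and filled markers have an interaction with an adjusted p under 0.05. Of the 36 genes, 31 lie below the diagonal, and *Abca1*, *Abcg1*, *Nr1h3*, *Insig2* and *Ebp* lie above it.

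The interaction, the change in KO minus the change in WT, tests whether the genotypes differed in their response. It was lower than 0 for 23 of the 36 genes (20.0% of all tested genes were), above 0 for 5 (19.4% of all), and did not pass for 8. The median was -0.38, against -0.0070 over all genes. Beyond 2-fold as lower (3.42% of all genes) were *Fdps* (-1.09 ± 0.23 SE, adjusted p = 0.0136), *Stard4* (-1.08 ± 0.19 SE, adjusted p = 0.00715) and *Idi1* (-1.02 ± 0.20 SE, adjusted p = 0.0109). *Abcg1* (1.27 ± 0.22 SE, adjusted p = 0.00671) was beyond 2-fold as higher (2.76% of all). The values of *Fdps* and *Idi1* are less certain because of shared sequence. The smallest adjusted p were those of the fatty acid genes *Scd1* (-0.85 ± 0.057 SE, adjusted p = 5.86e-04) and *Fasn* (-0.93 ± 0.072 SE, adjusted p = 8.10e-04). The 5 above 0 were *Abca1*, *Abcg1*, *Nr1h3*, *Insig2* and *Ebp*. With a pseudocount of 1 *Fdps* was the 1 gene beyond 2-fold, with *Abcg1* at 0.64, and without the variance trend or with a replicate block 3 genes were above 0. Leaving out any 1 library other than undifferentiated WT replicate 1 and differentiating KO replicate 2 took the genes above 0 to 3. *Fdps* did not pass without undifferentiated WT replicate 1, differentiating WT replicate 2 or undifferentiated KO replicate 1, nor *Sqle* (-0.93 ± 0.19 SE, adjusted p = 0.0124) without differentiating WT replicate 2 or undifferentiated KO replicate 2. Without differentiating WT replicate 2, 13 genes were below 0, and without undifferentiated KO replicate 1, 15 (4057 and 4123 genes called in all, against 6048). Without differentiating KO replicate 2 only 1 gene was beyond 2-fold, without replicate 1 of that group 7 were, and without undifferentiated WT replicate 1 or differentiating WT replicate 2, 2 were.

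Other genes of sterol and lipid metabolism were counted in differentiating KO against WT MSCs, where 22.9% of all tested genes were lower and 17.8% higher. Of 9 genes of SREBP processing and degradation, 1 was lower and 1 was higher in differentiating KO than WT MSCs. They were *Erlin1*, which acts in the degradation of sterol enzymes (-0.13 ± 0.039 SE, adjusted p = 0.0400), and *Mbtps1*, the site-1 protease that cleaves SREBPs (0.12 ± 0.027 SE, adjusted p = 0.0169). Of 10 genes of the isoprenoid branches that leave the mevalonate pathway, 5 were lower and 0 higher. *Pdss1*, which makes the side chain of coenzyme Q, fell most, from 2.17 and 2.46 RPKM in WT to 1.44 and 1.32 RPKM in KO (-0.70 ± 0.11 SE, adjusted p = 0.00457), followed by *Nus1*, a subunit of the dolichol-making transferase (-0.34 ± 0.040 SE, adjusted p = 0.00220). Of 17 other tested genes of fatty acid synthesis and activation, 9 were lower and 1 was higher. *Hsd17b12* (-0.66 ± 0.064 SE, adjusted p = 0.00133) and *Hacd1* (-0.61 ± 0.073 SE, adjusted p = 0.00231), enzymes of the elongation cycle, fell most, and *Acacb*, the carboxylase that restrains fatty acid oxidation, was higher (0.58 ± 0.13 SE, adjusted p = 0.0149).

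Genes of lipid assembly and transport were called in both directions in differentiating KO against WT MSCs, and those of fatty acid oxidation only as higher. Of 13 genes of glycerolipid synthesis 3 were lower (23.1%) and 2 higher (15.4%), close to the shares over all tested genes (22.9% and 17.8%). Among them were *Pcyt1a*, which makes CDP-choline (-0.35 ± 0.048 SE, adjusted p = 0.00352), and *Lpin1*, a phosphatidate phosphatase (0.31 ± 0.049 SE, adjusted p = 0.00512). Of 13 genes of sterol trafficking and storage 4 were lower and 4 higher (30.8% each). *Tmem97*, a sterol-regulated membrane protein, was at 24.1 and 25.9 RPKM in differentiating WT and 14.4 and 10.9 RPKM in differentiating KO MSCs (-0.99 ± 0.12 SE, adjusted p = 0.00252), with replicate 2 the lower KO library as for *Fdps* and *Idi1*. *Ch25h*, the cholesterol 25-hydroxylase, was lower too (-0.98 ± 0.082 SE, adjusted p = 9.81e-04), while *Cyp27a1*, which makes 27-hydroxycholesterol, was higher (0.65 ± 0.18 SE, adjusted p = 0.0332), as was *Mylip*, a ubiquitin ligase induced by LXR (0.24 ± 0.074 SE, adjusted p = 0.0463). Of 11 genes of fatty acid oxidation 5 were higher (45.5%) and 0 lower. *Acadm*, the medium-chain acyl-CoA dehydrogenase, was at 51.9 and 49.9 RPKM in WT and 70.3 and 72.1 RPKM in KO (0.48 ± 0.038 SE, adjusted p = 8.67e-04), followed by *Ppara*, a receptor that raises oxidation genes, at 0.383 and 0.330 RPKM in WT and 0.515 and 0.535 RPKM in KO (0.45 ± 0.14 SE, adjusted p = 0.0435).

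**Figure D5:**
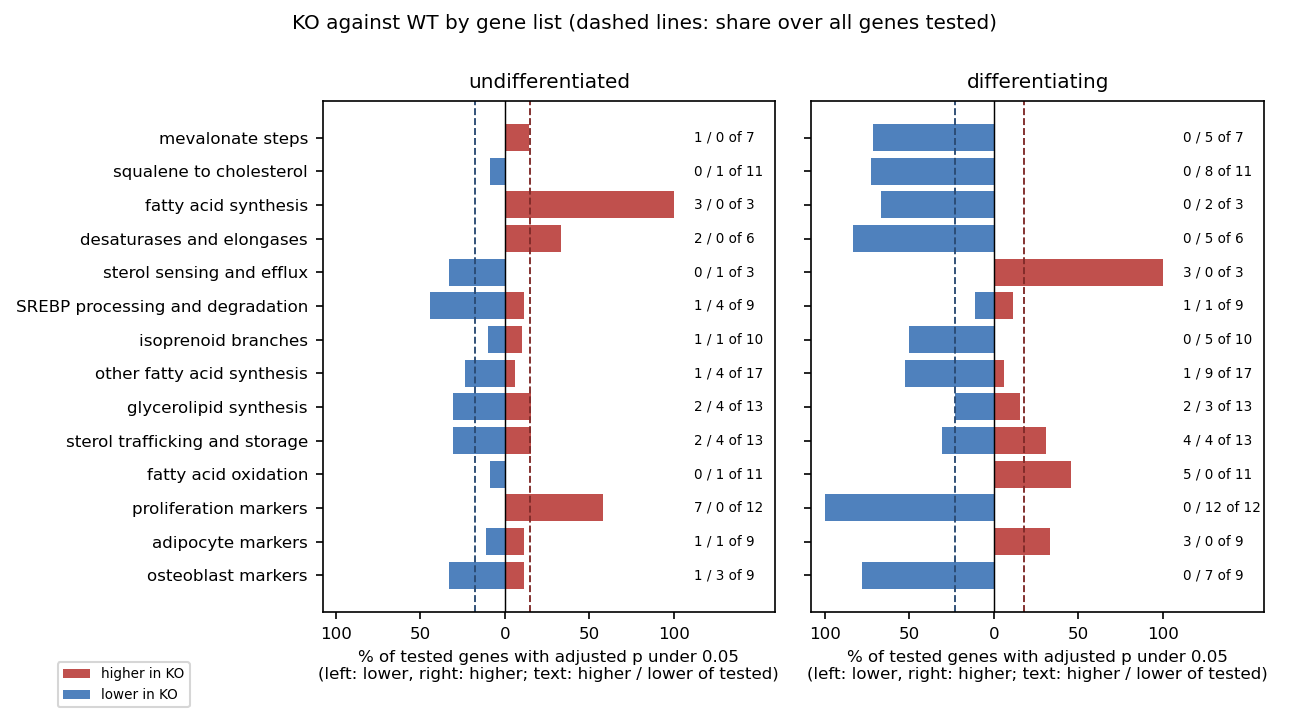
Share of tested genes of each list with an adjusted p under 0.05, lower (left of 0) or higher (right of 0) in KO than in WT, in undifferentiated (left panel) and differentiating (right panel) MSCs. Dashed lines give the share over all tested genes and the numbers at the right give the counts. In differentiating MSCs the bars of the sterol and desaturase roles extend to 71.4% or more on the left, the efflux bar reaches 100% to the right, and all 12 proliferation markers are lower.

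Markers of cell state differed between the groups as well. All 12 proliferation markers were lower in differentiating KO than WT MSCs (22.9% of all tested genes were), with a median of -1.28 on the log2 scale. In undifferentiated KO MSCs 7 of 12 were higher (14.7% of all). On induction all 12 fell in both genotypes (32.8% of all genes fell in WT and 36.6% in KO). The summed level of the 12 was 264 and 265 RPKM in undifferentiated WT and 151 and 164 in differentiating WT. It was 349 and 353 RPKM in undifferentiated KO and 94.4 and 74.4 in differentiating KO. *Mki67* (-1.68 ± 0.16 SE, adjusted p = 0.00134) and *Bub1* (-1.60 ± 0.16 SE, adjusted p = 0.00139) fell most in differentiating KO. The part of proliferation in the sterol gene differences was not tested. Adipocyte markers rose on induction, 8 of 9 in WT (31.6% of all tested genes did) and 9 of 9 in KO (36.4% of all). Their sum went from 62.7 and 65.8 to 465 and 463 RPKM in WT. In KO it went from 68.3 and 70.9 to 521 and 491 RPKM. *Retn* was listed at 0 in all undifferentiated libraries. Between the genotypes 3 of 9 adipocyte markers were higher in differentiating KO (17.8% of all tested genes were). They were led by *Retn* (1.24 ± 0.21 SE, adjusted p = 0.00620) and *Plin4* (0.55 ± 0.051 SE, adjusted p = 0.00123). The part of lipid-storing cells in the rise of *Abca1*, *Abcg1* and *Nr1h3* was not tested.

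In differentiating KO against WT, 22.9% of all tested genes were lower and 17.8% higher. Of the other markers, 7 of 9 for osteoblasts were lower in this comparison and 0 higher. They were led by *Bglap* (-2.23 ± 0.40 SE, adjusted p = 0.00763) and *Ibsp* (-1.0 ± 0.10 SE, adjusted p = 0.00146). The sums of the osteoblast markers were 2321 and 2097 RPKM in differentiating WT and 1239 and 1170.0 in differentiating KO. All 10 MSC markers were above 1 RPKM in both libraries of every group. In differentiating KO 4 were higher, led by *Pdgfra* (0.64 ± 0.051 SE, adjusted p = 9.08e-04) and *Ly6a* (0.47 ± 0.048 SE, adjusted p = 0.00146), and 5 lower, led by *Cd44* (-0.76 ± 0.079 SE, adjusted p = 0.00157) and *Thy1* (-0.46 ± 0.051 SE, adjusted p = 0.00186). Macrophage and leukocyte markers were low, with sums of 20.5 and 21.5 RPKM in undifferentiated WT, 33.0 and 37.8 in differentiating WT, 11.0 and 10.0 in undifferentiated KO and 14.1 and 15.2 in differentiating KO. Of the 9 tested, 8 were lower and 1 higher in differentiating KO, led by *Tyrobp* (-2.39 ± 0.20 SE, adjusted p = 9.81e-04) and *Lyz2* (-1.76 ± 0.089 SE, adjusted p = 3.79e-04) as lower, with *Cd14* higher (0.46 ± 0.11 SE, adjusted p = 0.0196). *Ptprc*, which encodes CD45, was at most 0.127 RPKM in any library, with a mean under the minimum for testing. The other 9 markers, among them *Itgam*, which encodes CD11b, reached that minimum. Of the 10, 5 were above 1 RPKM in both libraries of each group except differentiating KO, where 3 were. On induction 7 of the 9 tested were higher and 2 lower in WT (31.6% and 32.8% of all tested genes). In KO 2 were higher and 2 lower (36.4% and 36.6% of all). The part of these cells in the differences of *Abca1*, *Abcg1* and *Nr1h3* was not tested. Endothelial markers summed to 1.46 to 4.94 RPKM, and 3 of 6 were tested, of which *Tek* was higher in differentiating KO (0.83 ± 0.15 SE, adjusted p = 0.00735).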

How the data were processed

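RNA of 8 libraries (4 groups of 2) was rRNA-depleted, made into stranded libraries and sequenced as 50-bp single reads. Per the paper's methods and the submitters' processing notes, the authors aligned the reads to mm10 with TopHat2 2.1.0, used the iGenomes annotation and quantified with Cuffdiff of Cufflinks 2.2.1. The deposited values are RPKM per gene and library, and how the libraries were scaled is not given in the sources used here. Depth was estimated from the steps between low values, of which 65.4% of 3898 came out as whole reads within 0.05, too few for a test on counts. Intervals from this depth were not computed, and 3 reads were taken as the floor.

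The members and lists were chosen with earlier results of these data known. Values were fitted as log2(RPKM + 0.1) in limma 3.58.1 (R 4.3.3, variance trend, a mean for each group, 4 residual degrees of freedom) over the 15342 of 24346 genes whose mean over the libraries reached 0.1 RPKM, after the scripts were tested on simulated data. A total of 4324 genes were listed at 0 in every library, and 50 genes were listed at 0 in 1 group and at 20 RPKM or more in another, with none of the 36 among them. Named besides the 36 genes are *Dnmt3l* and, of each other list, up to 2 genes in each direction with the largest log2 fold change among those past the adjusted p. *Ptprc*, the gene of the CD45 gate, was added after its values were seen, and *Itgam*, that of the CD11b gate, is named beside it. An item of 1 list is not reported here. Alternatives changed the pseudocount, the minimum, the normalization, the variance trend, the libraries in the fit and a replicate block. Fits that left out a library kept the tested genes and assumed that the lone library of a group varied like the others. Gene models for shared 50-base windows were from GENCODE M21 (GRCm38.p6), and promoters were from RefSeq.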

Additional observations from a re-analysis of the deposited data

Results flagged for a closer look

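A difference between WT and KO in the response to induction, as tested by the interaction in limma (log2 change in KO minus log2 change in WT, adjusted p under 0.05 over all tested genes), was found for 28 of the 36 genes, 23 below 0 and 5 above (20.0% and 19.4% of all tested genes). Below 0 were *Fdps* (-1.09), *Stard4* (-1.08), *Idi1* (-1.02), *Cyp51* (-0.96), *Sqle* (-0.93), *Dhcr7* (-0.70), *Lss* (-0.64), *Msmo1* (-0.63), *Acat2* (-0.55), *Pmvk* (-0.46), *Mvd* (-0.44), *Hsd17b7* (-0.43), *Hmgcs1* (-0.38) and *Nsdhl* (-0.37) of sterol synthesis and transport. Among the fatty acid genes they were *Elovl6* (-0.97), *Fasn* (-0.93), *Scd1* (-0.85), *Scd2* (-0.67), *Acaca* (-0.38) and *Elovl5* (-0.18), and among the regulators *Srebf2* (-0.64), *Scap* (-0.38) and *Srebf1* (-0.15). Above 0 were *Abcg1* (1.27), *Abca1* (0.74), *Nr1h3* (0.41), *Insig2* (0.41) and *Ebp* (0.26). Of the 28, 15 passed in every alternative. Of 16 alternatives the call was lost in 12 for *Nsdhl*, 11 for *Nr1h3*, 9 for *Hmgcs1*, 9 for *Srebf1*, 8 for *Ebp*, 7 for *Elovl5*, 6 for *Dhcr7*, 4 for *Pmvk*, 3 for *Fdps*, 3 for *Mvd*, 2 for *Sqle*, 1 for *Scap* and 1 for *Lss*. All 12 proliferation markers were lower in differentiating KO than WT MSCs (22.9% of all tested genes were), and their part in these differences was not tested.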

How the results depend on the processing

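Of the calls among the 36 genes, 12 of 28 for KO against WT in differentiating MSCs, 4 of 11 in undifferentiated MSCs, 23 of 29 on induction in WT, 25 of 29 in KO and 15 of 28 interactions held under every alternative, and 27, 8, 27, 27 and 22 under every one that kept all 8 libraries. No result reversed. With only the libraries compared, 7 genes were lower in undifferentiated KO and 11 in differentiating KO. The interaction was above 0 for 3 genes without the variance trend and 3 with the replicate block, and a pseudocount of 1 left 1 gene beyond 2-fold in it. Leaving out 1 library at a time gave 3 to 8 higher, 2 to 6 lower and 0 to 0 beyond 2-fold in undifferentiated KO against WT, 2 to 4, 14 to 28 and 0 to 5 in differentiating KO against WT, 15 to 18, 8 to 12 and 3 to 3 on induction in WT, 6 to 7, 20 to 23 and 8 to 11 in KO, and 3 to 5, 13 to 26 and 1 to 7 for the interaction. The cause of these shifts was not tested, beyond the smaller number of libraries. The replicate numbers did not pair the libraries (6 correlations of deviations, from -0.092 to 0.030), and with a replicate block 23 genes were lower in differentiating KO and 19 below 0 in the interaction. On induction in WT, *Ebp* went from 0.15 to 0.053 and *Acly* from 0.25 to 0.15 with median centring, and *Tm7sf2* from 0.62 to 0.38 with quantile normalization. In KO, *Acly* went from 0.11 to 0.026 with median centring and 0.25 with quantile normalization, and *Scd2* from -0.34 to -0.22 with the latter. Median centring also took *Srebf1* from -0.13 to -0.22, *Acat2* from -0.15 to -0.23 and *Fdft1* from -0.13 to -0.21 in KO, and quantile normalization took *Acat2* to -0.23 and *Tm7sf2* from 0.42 to 0.25. With 2 libraries a group and an estimated 33.7 reads at the least, depth limits mainly *Abcg1* before induction.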
